A study of Homo sapiens with 18 samples.

Results

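Loss of FHL2 was compared between 2 human melanoma lines, gene by gene: for each gene, the log2 difference between FHL2 shRNA arrays and GFP arrays in A375M2 was subtracted from the same difference in C32. This value is called the interaction here, and it is positive where the gene moved further upward in C32 and negative where it moved further upward in A375M2. All annotated genes were members, and 10940 of the 11232 genes with a probe set of a single symbol reached log2 4 in at least 3 arrays and were tested. Genes that moved in opposite directions were kept apart from genes called silent, which means that every GFP and shFHL2 array of a line was under log2 4.

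FHL2 is a scaffold protein built from LIM domains, paired zinc fingers that bind other proteins. It carries no enzyme activity of its own and links integrins, cytoskeletal proteins and transcription factors, and it is known both to activate and to repress transcription with different partners. Melanomas differ in the level of the lineage factor MITF and in how far they keep the pigment cell programme.

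The study profiled lentivirally transduced melanoma cells on Affymetrix arrays, and 11 of its 18 arrays enter the interaction. In A375M2, a metastatic derivative of the A375 line, these were 3 arrays of cells with a GFP vector and 3 of cells with a lentiviral pool of 3 shRNA constructs against FHL2. In C32 they were 2 arrays of GFP cells and 3 of cells with the FHL2 shRNA pool. A375M2 cells that carried full-length PMEL (3 arrays) or shRNAs against NFYA, part of the NF-Y factor that binds CCAAT letters (3 arrays), served as other references. The protocol describes drug selection, sorting of the cells with the brightest GFP signal and, for A375M2, 15 days in selective medium, so each group is a sorted pool from a line and not a set of clones. Control particles with an empty GFP vector and with copGFP are both described, and the labels do not say which the GFP arrays hold. The GFP groups are no non-targeting shRNA control. For A375M2 the replicates come from separate experiments, whereas for C32 nothing in the labels says so, and the spread that the p-values rest on may be technical there.

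Several facts about the arrays bear on every result below. The third C32 GFP array was almost the mean of the other two (SD of the difference 0.00746 over 16823 probe sets; 0.108 to 0.171 for the same measure in other arrays) and was left out. With it kept, 8988 genes in place of 8772 had a called interaction, 3716 at 2-fold, and the counts of opposite and silent genes given below were the same. The A375M2 shFHL2 arrays lay far from A375M2 GFP (root mean square difference 1.42 over 11232 genes) and nearer to A375M2 shNFYA (0.70), whereas C32 shFHL2 lay 0.66 from C32 GFP. Between A375M2 GFP and shFHL2, 62 genes went from a mean under log2 4 to one over log2 8 and 43 went the other way; in C32 these counts were 2 and 8. The first arrays of A375M2 GFP and PMEL shared 540 exactly equal probe set values and those of A375M2 shFHL2 and shNFYA shared 313, but those of A375M2 GFP and shFHL2 shared 0, while C32 GFP and shFHL2 shared 380. The first array of A375M2 shFHL2 shared 42 such values with that of C32 GFP and 38 with that of C32 shFHL2. A375M2 GFP shared 0 with either C32 group. By these equal values the arrays fall into sets, which no label names, and A375M2 GFP and A375M2 shFHL2 lie in different ones. Set and group cannot be told apart for them, which enters every interaction. Spiked poly-A control probe sets averaged 7.15 ± 0.03 (SD, n = 3) in A375M2 GFP, 6.57 ± 0.14 in A375M2 shFHL2, 9.37 ± 0.28 (n = 2) in C32 GFP and 5.96 ± 0.04 in C32 shFHL2. The 18S ribosomal RNA probe sets averaged 12.52 ± 0.03 in A375M2 GFP, 14.18 ± 0.07 in A375M2 shFHL2, 13.28 ± 0.13 in C32 GFP and 13.94 ± 0.10 in C32 shFHL2. Hybridization controls averaged 12.12 ± 0.04 and 12.06 ± 0.10 in the A375M2 groups and 12.79 ± 0.14 and 11.87 ± 0.05 in those of C32. Melanocyte markers held in all 4 groups for SOX10 and MITF, each over log2 8, while MLANA was under log2 4 in A375M2 with either vector and over log2 8 in C32. The summed signal of 6 melanocyte markers ran from log2 14.68 to 14.78 in A375M2 GFP, 12.55 to 12.64 in A375M2 shFHL2, 16.08 to 16.15 in C32 GFP and 14.96 to 15.07 in C32 shFHL2. That of 6 epithelial markers ran from 11.58 to 11.73, 13.05 to 13.12, 7.19 to 7.59 and 7.51 to 7.65 in the same order. In A375M2 shFHL2 the melanocyte markers MLANA, PMEL, TYR and TYRP1 were under log2 4, and in C32 5 of the 6 epithelial markers were so with either vector. The summed signal of 6 fibroblast markers ran from 11.50 to 11.69, 8.92 to 9.04, 12.15 to 12.32 and 12.73 to 12.75. That of 3 blood cell markers ran from 6.83 to 6.87, 9.45 to 9.85, 8.73 to 9.58 and 8.08 to 9.11, with LYZ under log2 4 in A375M2 GFP and over log2 8 in A375M2 shFHL2. KDR, the 1 endothelial marker measured, ran from 6.68 to 6.96, 7.34 to 7.75, 10.15 to 10.21 and 7.75 to 7.88. The part of these markers and controls in the results was not tested. Because of the array sets, the interaction is also given below with the A375M2 shNFYA arrays in place of GFP, which share equal values with shFHL2; that value sets one knockdown against another and is not the effect of FHL2 loss alone.

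FHL2 itself was lowered in both lines. Its level was 11.27, 11.17 and 11.18 in the A375M2 GFP arrays and 7.01, 7.26 and 7.25 in the shFHL2 arrays, and in C32 it was 11.12 and 11.03 with GFP and 6.10, 6.10 and 5.30 with the shRNAs. The lines started from nearly the same level and neither pair of groups overlapped, with the C32 shFHL2 arrays lowest. The difference was -4.04 (SE 0.144, adjusted p = 1.62e-14) in A375M2 and -5.24 (SE 0.161, adjusted p = 2.45e-14) in C32. The interaction was -1.21 (95% interval -1.66 to -0.75, adjusted p = 6.21e-05), so that the measured fall was larger in C32. In these bulk samples, fewer cells with a transcript and less of it in each cell cannot be told apart. FHL2 stood at 11.13, 11.07 and 11.10 in the shNFYA arrays, level with the GFP arrays, and its interaction with that reference was -1.31.

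The lines differed in their answer at most genes. Of 10940 genes tested, 8772 (80.2%) had an interaction with an adjusted p under 0.05 in limma, 4604 higher in C32 (42.1%) and 4168 lower (38.1%). At a 2-fold difference or more there were 3715 (34%), with 1887 higher and 1828 lower. With so large a background, a call alone says little of a gene, and the size and the levels in both lines are given throughout. Over all genes the median interaction was 0.06 with a median SE of 0.107. The difference between shFHL2 and GFP was called for 9341 genes in A375M2 (3431 at 2-fold) and for 6847 in C32 (936 at 2-fold).

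Opposite movement at 2-fold in both lines was rare. In all, 404 genes were called at 2-fold in both, of which 91 rose in both, 171 fell in both and 142 moved in opposite directions. Those 142 were 89 genes that rose in A375M2 and fell in C32 (0.814% of genes tested) and 53 that fell in A375M2 and rose in C32 (0.484%). With no lower limit on size, 5645 genes were called in both lines and 2342 of them had opposite signs, 1020 up in A375M2 (9.32%) and 1322 down in A375M2 (12.1%). Much more often a gene was silent in a line. Among the genes called at 2-fold in the interaction, 622 (5.69% of genes tested) were silent in C32, of which 483 were higher and 139 lower in A375M2 shFHL2 than GFP, and 107 (0.978% of genes tested) were silent in A375M2, of which 60 were higher and 47 lower in C32 shFHL2. The remaining 2835 genes were silent in neither line and not opposed at 2-fold. Of these, 1784 reached 2-fold only in A375M2, 284 only in C32, 99 in the same direction in both and 668 in neither line, and 9 further genes were silent in both lines by their GFP and shFHL2 arrays.

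**Figure D1:**
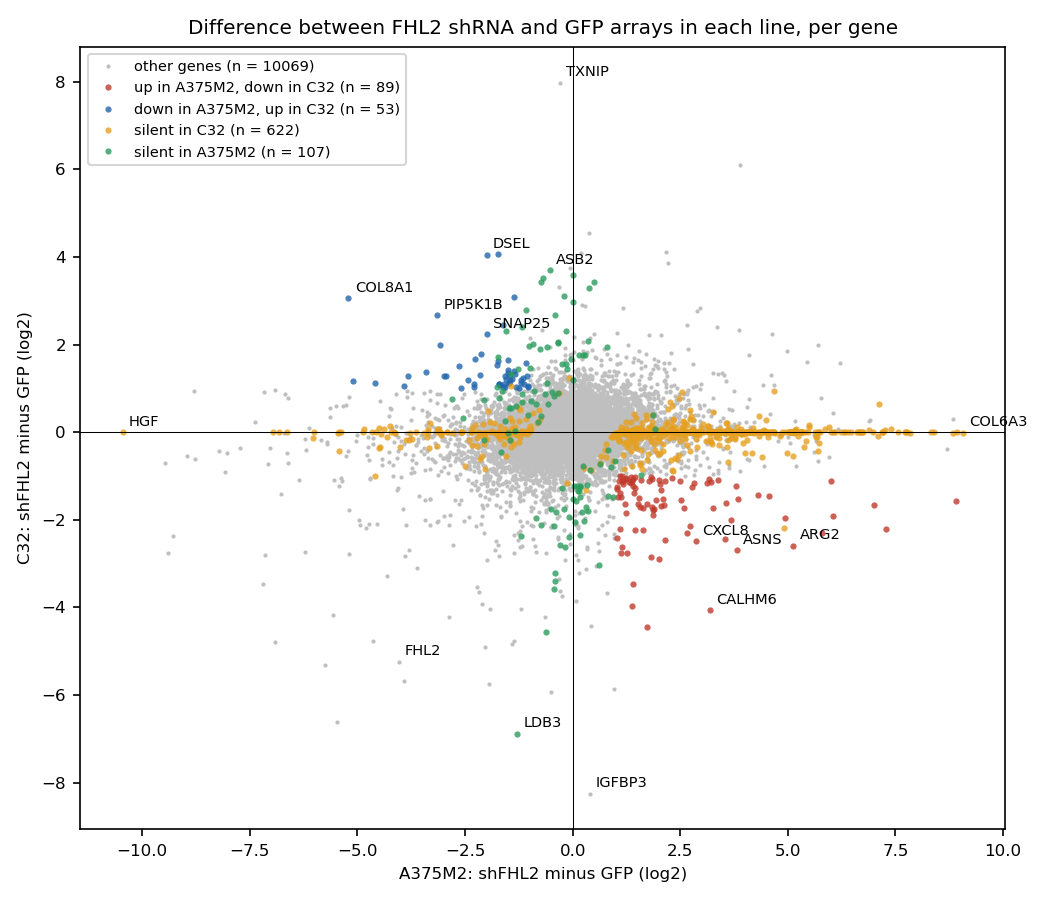
Log2 difference between shFHL2 and GFP arrays in A375M2 (x axis) and in C32 (y axis) for each of 10940 genes, with colours for genes of opposite direction and for genes silent in a line. The 89 and 53 genes of opposite direction lie in the lower right and upper left, the 622 genes silent in C32 lie along the horizontal axis, and FHL2 lies in the lower left at -4.04 and -5.24.

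Genes lay close to the class limits on both sides. XBP1 was the gene nearest inside the class that rose in A375M2 (1.099 in A375M2 and -1.006 in C32), and CCPG1 lay just outside it (2.602 and -0.999). CEP152 was just inside the other class (-2.591 and 1.001) and RNF182 just outside (1.190 in C32 and short of a 2-fold fall in A375M2). For silence in C32, the highest array stood at 3.981 for TIGD4 inside the limit and at 4.002 for ZNF239 outside it, and in A375M2 at 3.971 for ALDH1A1 inside and 4.070 for HNF4G outside.

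Examples of the 89 genes that rose in A375M2 and fell in C32, chosen after their values were seen, are amino acid enzymes and transporters (ASNS, SLC7A11, SLC3A2, SLC1A5, PCK2, CBS), secreted signals (CXCL8, BDNF, IL15, IL7, PDGFA, HBEGF), immediate early factors (EGR1, FOS, ATF3) and the receptor kinase AXL. Their median difference was 1.84 in A375M2 and -1.53 in C32, and the interactions ran from -10.47 for CNTN4, a neuronal adhesion protein, to -2.11 for XBP1. In all 89 the shFHL2 and GFP arrays did not overlap in either line, as was the case for 64.9% of all genes. Since the class was defined by these differences, their values are a description and their p-values no further support.

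ASNS, the enzyme that makes asparagine, stood at 10.34, 10.24 and 10.33 in A375M2 GFP and at 14.10, 14.13 and 14.14 in A375M2 shFHL2, against 12.17 and 12.16 in C32 GFP and 9.51, 9.45 and 9.41 in C32 shFHL2. With GFP, C32 was the higher line; with the shRNAs it was the lower one, and no groups overlapped. The difference was 3.82 in A375M2 (SE 0.036) and -2.70 in C32 (SE 0.0402), an interaction of -6.53 (95% interval -6.64 to -6.41, adjusted p = 3.65e-22). With the shNFYA reference the interaction was -3.01, mostly the fall in C32, since the A375M2 difference against shNFYA was 0.31.

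ARG2, the mitochondrial arginase, started level in the lines, at 7.63, 7.79 and 7.67 in A375M2 GFP and 7.61 and 7.73 in C32 GFP. It stood at 12.81, 12.80 and 12.87 in the A375M2 shFHL2 arrays and 5.13, 4.86 and 5.26 in those of C32. The groups parted in opposite directions by 5.13 and -2.59, and the interaction was -7.71 (95% interval -7.96 to -7.46, adjusted p = 6.1e-19) or -3.57 with shNFYA as reference. The other of its 2 probe sets had 2.34 in A375M2 and -0.26 in C32, an interaction of -2.60, so the 2-fold fall in C32 rests on 1 probe set.

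CXCL8, the neutrophil-attracting chemokine, was high in A375M2 at 10.99, 11.37 and 11.16 with GFP and 13.87, 14.08 and 14.17 with the shRNAs. In C32 it was far lower, at 7.11 and 7.14 with GFP and 4.75, 4.61 and 4.58 with the shRNAs. Both lines moved with no overlap, which the naming rule required, and the interaction was -5.35 (95% interval -5.68 to -5.02), or -1.04 with shNFYA. AXL, a receptor tyrosine kinase followed in melanoma as a mark of the undifferentiated state, stood at 4.74, 4.97 and 5.24 in A375M2 GFP and 12.17, 12.36 and 12.28 in shFHL2. In C32 it was near the limit of silence, at 3.78 and 4.72 with GFP and 2.08, 2.0 and 2.0 with the shRNAs. Its C32 difference of -2.22 thus lay at the bottom of the scale and shrank to -0.36 when values under log2 4 were set to 4, while that of A375M2 stayed at 7.29. Its interaction was -9.51 (95% interval -10.09 to -8.93) and -2.55 with shNFYA as reference.

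CALHM6, of the calcium homeostasis modulator channel family, ranked first in the class by the smaller of its changes in the lines. It stood at 5.91, 6.47 and 6.37 in A375M2 GFP, 9.43, 9.45 and 9.44 in A375M2 shFHL2, 7.20 and 6.50 in C32 GFP and 3.01, 3.01 and 2.32 in C32 shFHL2, with C32 shFHL2 below log2 4 in every array. The interaction was -7.26 (95% interval -7.86 to -6.67) and -5.22 with shNFYA. Its other probe set had an interaction of -4.32, with -0.91 in C32. EHF, an epithelial ETS-family transcription factor, stood at 4.30, 3.91 and 4.27 (GFP) and 6.82, 6.86 and 6.76 (shFHL2) in A375M2, and at 7.0 and 6.80 (GFP) and 4.76, 4.51 and 4.50 (shFHL2) in C32. The A375M2 shFHL2 and C32 GFP arrays of EHF overlapped, and its interaction was -4.96 (95% interval -5.33 to -4.59), or -1.07 with shNFYA. TMCC3, a membrane protein of the endoplasmic reticulum, was 3.14, 2.73 and 2.84 in A375M2 GFP and 8.67, 8.83 and 8.63 in shFHL2, and 4.81 and 4.98 (GFP) and 2.71, 2.71 and 2.35 (shFHL2) in C32. The groups with the lowest levels lay under log2 4, so the C32 difference of -2.30 became -0.89 with the floor at 4, and the interaction was -8.11, -5.60 with the floor and -1.61 with shNFYA. N4BP2L1 had its highest level in C32 GFP (8.54 and 8.61) and its lowest in A375M2 GFP (2.97, 2.97 and 3.21), and with the shRNAs the lines met at 6.73, 6.48 and 6.51 in A375M2 and 6.29, 6.10 and 6.02 in C32. Its interaction was -5.96 (95% interval -6.49 to -5.43), of which -4.90 was left with shNFYA as reference.

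**Figure D2:**
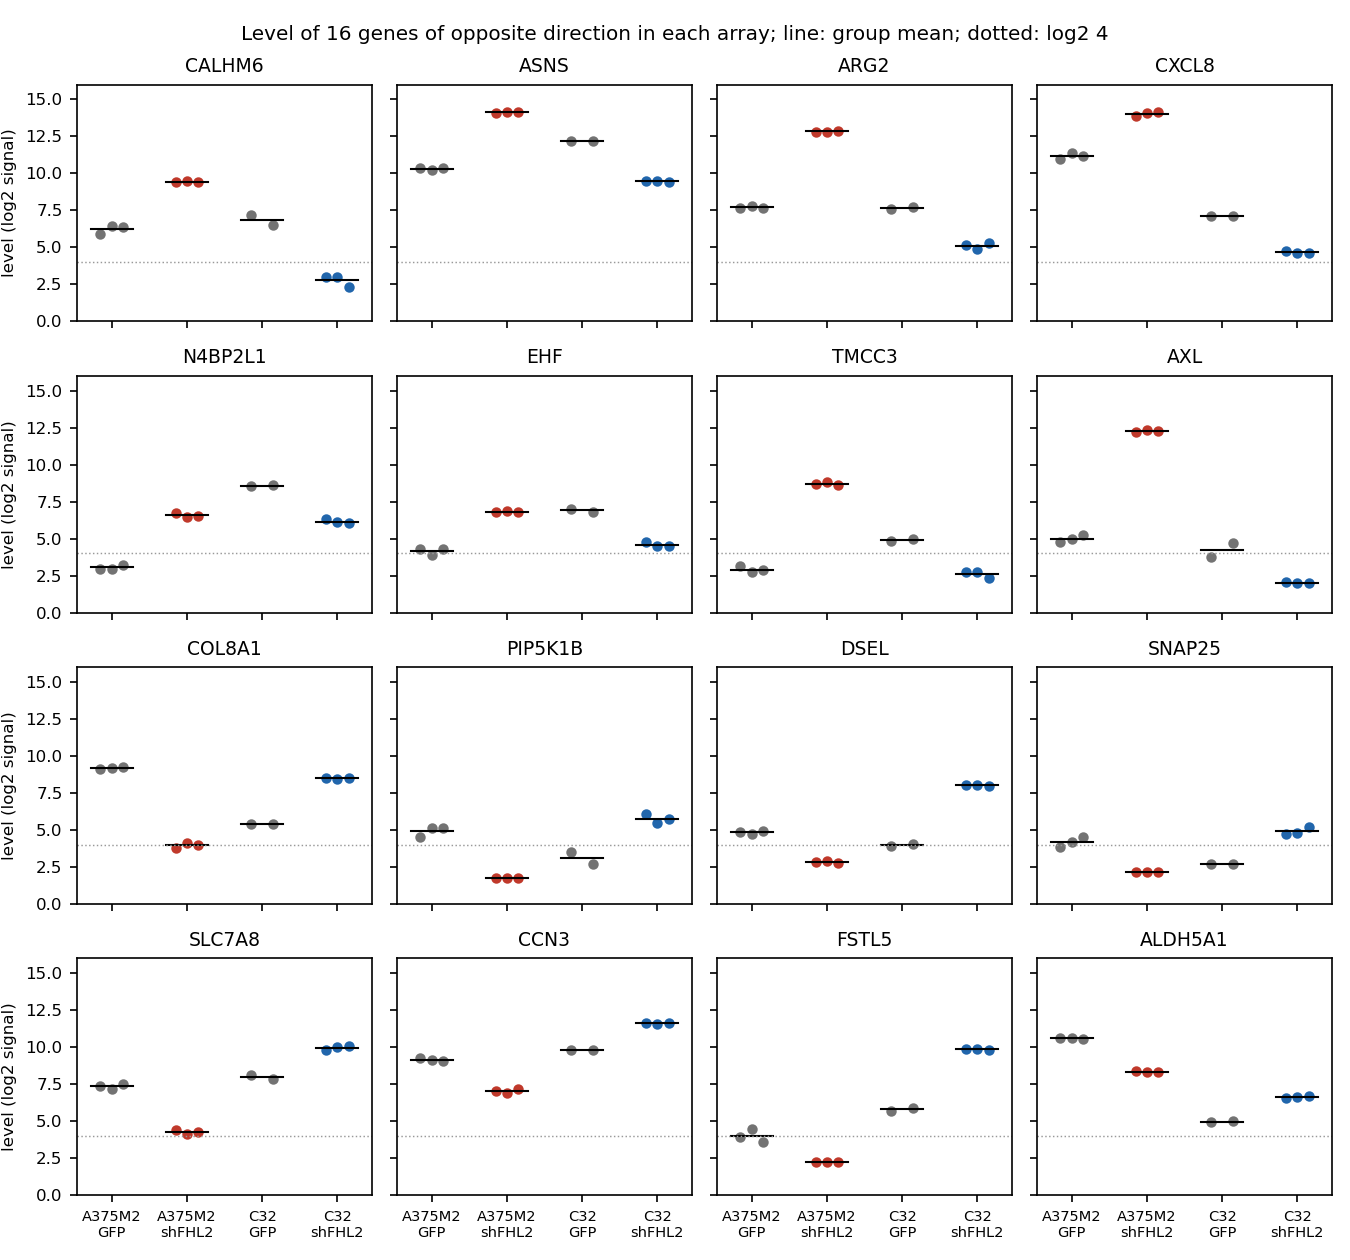
Log2 level in each array for 16 genes of opposite direction, with A375M2 and C32 side by side; points are arrays, the bar is the group mean and the dotted line marks log2 4. ASNS rises from about 10.30 to 14.13 in A375M2 and falls from 12.16 to 9.46 in C32, while COL8A1 falls from 9.17 to 3.96 in A375M2 and rises from 5.42 to 8.48 in C32.

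Of the 53 genes that fell in A375M2 and rose in C32, 6 belong to the mitotic list described below (AURKA, AURKB, BUB1B, CDC20, CENPE and DLGAP5). Other members, chosen after their values were seen, are the mitotic genes SPC25, HJURP and KIFC1, the kinase ligand KITLG, the nuclear receptor RXRG and the matrix proteins COL8A1 and CCN3. Their median difference was -1.62 in A375M2 and 1.27 in C32. Interactions ran from 2.07 for ABHD3 to 8.27 for COL8A1, a chain of the network-forming collagen VIII.

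COL8A1 stood at 9.09, 9.20 and 9.22 in A375M2 GFP and 3.79, 4.09 and 3.99 in A375M2 shFHL2. In C32 it stood at 5.42 in each array with GFP and 8.50, 8.45 and 8.48 with the shRNAs, so that its level with the shRNAs in C32 came near that of A375M2 GFP. The difference was -5.21 (SE 0.0912) in A375M2 and 3.06 (SE 0.102) in C32, and the interaction 8.27 had a 95% interval of 7.98 to 8.55 (adjusted p = 1.51e-18). With shNFYA as reference it was 1.59, because COL8A1 was lower still in shNFYA than in shFHL2 arrays of A375M2.

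DSEL, an enzyme of dermatan sulfate synthesis, stood at 4.84, 4.73 and 4.94 in A375M2 GFP, 2.83, 2.89 and 2.77 in A375M2 shFHL2, 3.87 and 4.03 in C32 GFP and 8.03, 8.0 and 7.96 in C32 shFHL2. The C32 shFHL2 arrays stood alone far above the rest, and the interaction was 6.05 (95% interval 5.65 to 6.45). With the floor at log2 4 its A375M2 difference went from -2.0 to -0.83, under 2-fold, and the interaction was 4.82. With shNFYA and no floor it was 6.57, and DSEL is one of 4 genes of this class that stayed in it with that reference. FSTL5, a secreted follistatin-like protein, had the same shape, at 3.92, 4.45 and 3.61 (GFP) and 2.26 in each array (shFHL2) in A375M2 and 5.71 and 5.88 (GFP) and 9.85, 9.88 and 9.83 (shFHL2) in C32. Its A375M2 difference of -1.73 lay almost wholly under log2 4 (-0.15 with the floor), and its interaction was 5.79, or 4.21 with the floor and 4.06 with shNFYA. SNAP25, a SNARE protein of vesicle fusion, and PIP5K1B, a lipid kinase that makes a membrane phosphoinositide, were also low genes. SNAP25 stood at 3.86, 4.20 and 4.49 (GFP) and 2.18 in each array (shFHL2) in A375M2 and at 2.66 in each array (GFP) and 4.71, 4.79 and 5.20 (shFHL2) in C32. PIP5K1B stood at 4.52, 5.10 and 5.10 (GFP) and 1.75, 1.75 and 1.76 (shFHL2) in A375M2 and at 3.49 and 2.66 (GFP) and 6.04, 5.47 and 5.72 (shFHL2) in C32. Their interactions of 4.24 and 5.82 fell to 1.13 and 2.65 with the floor at log2 4, so much of each lay in values close to background, and were 2.24 and 2.60 with shNFYA. The A375M2 differences with that floor were -0.23 for SNAP25 and -0.91 for PIP5K1B, both under 2-fold.

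SLC7A8, a neutral amino acid transporter, was well above that range in C32. It stood at 7.36, 7.16 and 7.50 in A375M2 GFP, 4.38, 4.12 and 4.25 in A375M2 shFHL2, 8.10 and 7.82 in C32 GFP and 9.81, 9.98 and 10.05 in C32 shFHL2, with an interaction of 5.07 (95% interval 4.64 to 5.51) and 2.10 with shNFYA. Over its 3 probe sets the interaction ran from 1.81 to 5.07 and the A375M2 difference from -3.09 to 0.34, so that not every probe set fell in A375M2. CCN3, a matricellular protein of the CCN family, stood at 9.24, 9.13 and 9.09 (GFP) and 7.02, 6.88 and 7.18 (shFHL2) in A375M2 and at 9.81 in each array (GFP) and 11.64, 11.55 and 11.62 (shFHL2) in C32, with an interaction of 3.92 (95% interval 3.67 to 4.16), or 1.28 with shNFYA. ALDH5A1, the succinate semialdehyde dehydrogenase of GABA breakdown, stood at 10.63, 10.64 and 10.57 (GFP) and 8.36, 8.32 and 8.32 (shFHL2) in A375M2 and at 4.92 and 4.99 (GFP) and 6.58, 6.65 and 6.69 (shFHL2) in C32. For ALDH5A1 the A375M2 arrays stayed above those of C32 with either vector, and the gap narrowed, giving an interaction of 3.96 (95% interval 3.79 to 4.14) and 1.66 with shNFYA.

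Membership of these classes depended on the floor and on the A375M2 reference. When values under log2 4 were set to 4, 77 of the 89 genes and 45 of the 53 stayed in their class. With the PMEL arrays of A375M2 in place of GFP, with which they share equal values, there were 92 and 49 genes of opposite direction. Of these, 75 were shared with the 89 and 44 with the 53. With the shNFYA arrays there were 77 and 17, and of the original classes 23 of 89 (25.8%) and 4 of 53 (7.55%) remained. The median A375M2 difference of the 89 genes was 1.84 against GFP, 1.97 against PMEL and 0.35 against shNFYA, and that of the 53 was -1.62, -1.65 and 0.07. Of the 89 genes, the A375M2 difference against shNFYA was called with the same sign in 47 and with the other sign in 27. Those with the other sign included CXCL8 (-1.45), EHF (-1.24) and TMCC3 (-0.69), and 15 were not called. Of the 53 genes, 13 had the same sign, 22 the other sign and 18 were not called. The interaction itself kept its sign and call in 85 of the 89 genes with the shNFYA reference, 75 of them at 2-fold, and in 45 of the 53, 33 at 2-fold, since the C32 term in it is untouched by this choice.

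**Figure D3:**
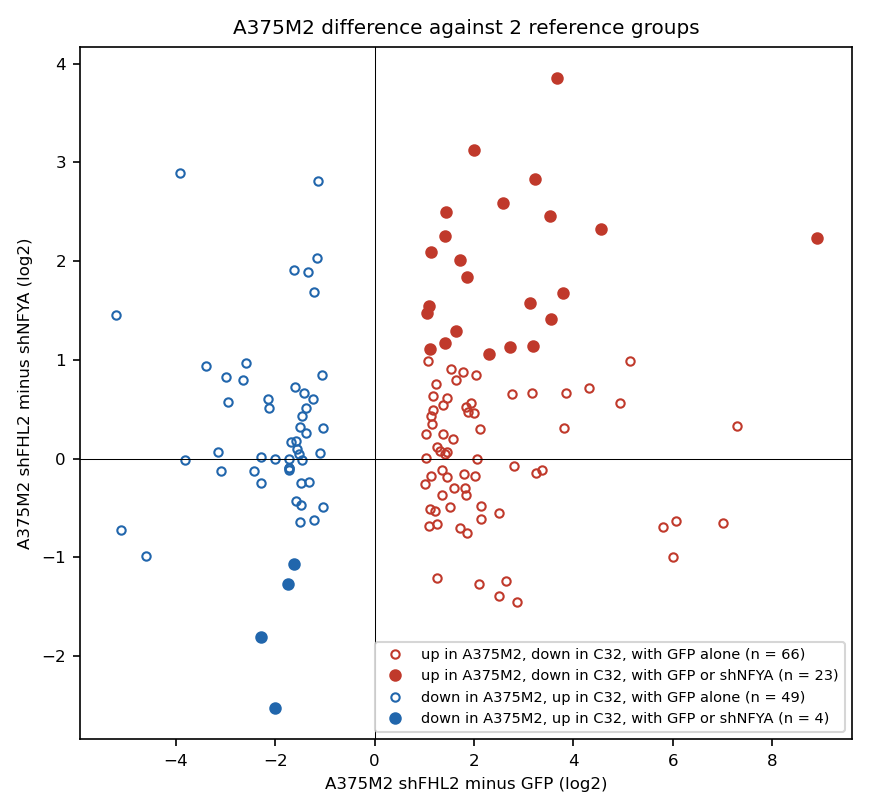
A375M2 log2 difference of shFHL2 against GFP (x axis) and against shNFYA (y axis) for the 142 genes of opposite direction; filled points are the genes that stay in their class with either reference. Of the genes that rose against GFP, 23 are filled, and of those that fell, 4 are filled.

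The 23 genes that rose in A375M2 against GFP and against shNFYA and fell in C32 were APOBEC3G, BEX4, CALHM6, CEMIP, CNTN4, COL13A1, FN1, FOS, GIMAP2, HBE1, MICAL2, MTSS1, N4BP2L1, NTN4, PDE4DIP, PDGFA, PLXNC1, PSIP1, RORA, RORB, SOCS3, TENM3 and TLCD2. They take in the matrix proteins FN1 and COL13A1, the hyaluronan-degrading protein CEMIP, the guidance proteins NTN4 and PLXNC1, the growth factor PDGFA and the cytokine signalling inhibitor SOCS3. FOS, a subunit of the AP-1 transcription factor, had an interaction of -3.09 with GFP and -4.22 with shNFYA, and FN1, the matrix protein fibronectin, -2.26 and -3.21. HBE1, an embryonic globin, had -5.68 and -5.85. FOS and FN1 stood lower in A375M2 shNFYA (means 5.89 and 10.07) than in A375M2 GFP (7.02 and 11.02). Against the PMEL arrays the A375M2 difference was 0.48 for FOS, 0.59 for FN1, 0.76 for SOCS3 and 0.97 for PSIP1, all under 2-fold. The 4 genes that fell in A375M2 against both references and rose in C32 were DSEL, GPR85, NT5DC2 and POP1. GPR85, an orphan receptor, had an interaction of 4.07 with GFP and 3.52 with shNFYA.

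Genes silent in C32 were the larger of the silent classes. Whether or not called in the interaction, 845 genes tested were silent in C32 alone and 253 in A375M2 alone. With values under log2 4 set to 4, the class silent in C32 held 469 genes in place of 622, and the other 76 in place of 107. In the genes named below, the value comes almost wholly from the A375M2 arrays. COL6A3, a chain of collagen VI, stood at 2.21, 2.21 and 2.23 in A375M2 GFP, 11.30, 11.30 and 11.27 in A375M2 shFHL2 and between 2.20 and 2.21 in all C32 arrays. LCN2, which binds bacterial siderophores, and the cadherin CDH12 stood at 2.20 in every A375M2 GFP and C32 array and, in A375M2 shFHL2, at 11.04, 11.15 and 11.23 for LCN2 and 10.52, 10.57 and 10.68 for CDH12. CHMP4C, of the membrane-cutting ESCRT machinery, and TRHDE, an enzyme that degrades thyrotropin-releasing hormone, followed the same pattern with A375M2 shFHL2 levels of 11.17, 11.08 and 11.09 for CHMP4C and 11.36, 11.20 and 11.33 for TRHDE. The interactions of these 5 were -9.08, -8.94, -8.39, -8.86 and -8.31, in the order COL6A3, LCN2, CDH12, CHMP4C and TRHDE. With the shNFYA reference that of COL6A3 was 0.08, of CHMP4C 0.28 and of TRHDE 0.68, all of the other sign, since these genes were as high or higher in A375M2 shNFYA than in shFHL2. For LCN2 it was -1.10 and for CDH12 -0.84, of the same sign.

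On the other side, HGF, the ligand of the MET receptor, stood at 12.55, 12.81 and 12.76 in A375M2 GFP and at 2.24 in every A375M2 shFHL2 and C32 array. The interaction was 10.46 (95% interval 10.20 to 10.72), the same sign was found in all 5 probe sets of the gene, and with values under log2 4 set to 4 it was 8.71. With shNFYA as reference it was 0.0, since HGF stood at a mean of 2.24 in those arrays as well. UTS2, the vasoactive peptide urotensin, DLK1, a Notch ligand homologue, CUX2, a homeodomain factor, and COLEC12, a scavenger receptor, fell in the same way from means of 9.21, 9.05, 8.87 and 8.86 in A375M2 GFP. Their means in A375M2 shFHL2 were 2.24, 2.21, 2.23 and 2.82, and their interactions were 6.97, 6.83, 6.64 and 5.89. With shNFYA these were 0.0, 0.0, 0.0 and 0.24. The 10 genes named here were thus on in A375M2 with 1 vector and at background with the other, and at background throughout in C32.

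Genes silent in A375M2 were fewer, and shifts under log2 4 in that line can enter their values. ALDH1A1, near the limit of silence, had -1.32 in A375M2 and 0.59 in C32. LDB3, a LIM-domain protein of the muscle Z-disc, had the largest difference, from 8.56 and 8.61 in C32 GFP to 1.70 in each array in C32 shFHL2, with 1.70 to 2.99 in A375M2. XAF1, an interferon-induced protein that binds the apoptosis inhibitor XIAP, stood at 8.58 and 8.35 (GFP) and 3.64, 4.08 and 3.98 (shFHL2) in C32, and CCDC80, a secreted matrix protein, at 7.34 and 7.39 (GFP) and 3.81, 3.71 and 3.86 (shFHL2). KCNJ13, a potassium channel, stood at 6.12 and 5.77 (GFP) and 2.43, 2.24 and 2.96 (shFHL2), and GRK3, a kinase that turns off receptors coupled to G proteins, at 7.70 and 8.10 (GFP) and 4.87, 4.53 and 4.64 (shFHL2). The C32 differences were -6.88 for LDB3, -4.57 for XAF1, -3.58 for CCDC80, -3.40 for KCNJ13 and -3.22 for GRK3. The interactions were -5.59, -3.96, -3.14, -2.98 and -2.82 in the same order, and -6.39, -4.57, -3.60, -3.40 and -3.22 with shNFYA.

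Upward, ASB2, a substrate receptor of a ubiquitin ligase, stood at 4.02 and 4.09 in C32 GFP and 7.44, 7.53 and 8.30 in C32 shFHL2, a difference of 3.70 (SE 0.192, adjusted p = 2.12e-11). EVI2B, a leukocyte membrane protein, stood at 3.02 and 3.36 (GFP) and 6.62, 6.57 and 6.63 (shFHL2), and SCEL, a precursor of the cornified envelope, at 2.21 in each array (GFP) and 5.83, 6.01 and 5.53 (shFHL2). C4orf54 stood at 2.40 and 3.20 (GFP) and 6.20, 6.15 and 6.57 (shFHL2), and RPPH1, the RNA subunit of ribonuclease P, at 2.94 and 2.09 (GFP) and 6.32, 5.58 and 5.96 (shFHL2). Of these 5, the C32 GFP arrays of ASB2 alone were above log2 4, and the interactions of 4.23 for ASB2, 4.15 for EVI2B, 3.59 for SCEL, 4.20 for C4orf54 and 2.93 for RPPH1 became 3.70, 2.61, 1.79, 2.31 and 1.95 with the floor at 4. With shNFYA as reference and no floor they were 3.64, 4.32, 8.01, 3.51 and 2.42.

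Among genes silent in neither line and not opposed at 2-fold, the 4 largest interactions each way came mostly from a swing in 1 line. TXNIP, the thioredoxin-interacting protein that restrains glucose uptake, stood at 12.78, 12.67 and 12.79 in A375M2 GFP and 12.49, 12.39 and 12.47 in A375M2 shFHL2. In C32 it was under log2 4 with GFP, at 3.82 and 3.49, and stood at 11.65, 11.62 and 11.65 with the shRNAs, close to the A375M2 level. Its interaction was 8.28 (95% interval 8.09 to 8.47, adjusted p = 6.17e-21), of the same sign in all 3 of its probe sets, and with shNFYA it was 8.05. IGFBP3, an insulin-like growth factor binding protein, was the mirror image: 13.43, 13.28 and 13.40 (GFP) and 13.83, 13.73 and 13.75 (shFHL2) in A375M2, and 11.51 and 11.45 with GFP but 3.35, 3.19 and 3.14 with the shRNAs in C32. The interaction of IGFBP3 was -8.65 (95% interval -8.81 to -8.50), or -8.16 with shNFYA. EFEMP2, a fibulin of elastic fibres, stood at 6.27, 6.46 and 6.21 (GFP) and 7.27, 7.24 and 7.33 (shFHL2) in A375M2 and at 7.99 and 8.23 (GFP) and 2.25, 2.11 and 2.37 (shFHL2) in C32, with an interaction of -6.84 and -6.03 with shNFYA. For these 3 genes the C32 arrays carried the difference, and the interaction kept its sign and exceeded 2-fold with either A375M2 reference. That choice leaves the C32 term untouched, so it is no check of that term.

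For the other 5 genes named here the A375M2 arrays carried it. SERPINH1, the collagen chaperone, stood at 1.77 in each A375M2 GFP array and at 10.51, 10.45 and 10.46 in A375M2 shFHL2, against 11.95 and 12.21 (GFP) and 11.71, 11.67 and 11.69 (shFHL2) in C32. MMP1, the interstitial collagenase, stood at 3.40, 3.20 and 3.36 (GFP) and 12.16, 12.17 and 12.12 (shFHL2) in A375M2 and at 7.63 and 7.51 (GFP) and 7.68, 7.94 and 8.0 (shFHL2) in C32. SOX9, a transcription factor of neural crest and cartilage, stood at 11.97, 11.81 and 11.95 (GFP) and 2.36, 2.17 and 2.77 (shFHL2) in A375M2 and at 7.68 in each array (GFP) and 7.11, 6.90 and 6.92 (shFHL2) in C32. Each of these went from background to a high level in A375M2 or back, with far less movement in C32. SPATS1 and ARMCX2 had differences in A375M2, like SOX9, of -8.79 and -8.95, and had 0.95 and -0.54 in C32. The interactions were -9.09 for SERPINH1, -8.52 for MMP1, 8.78 for SOX9, 9.74 for SPATS1 and 8.41 for ARMCX2, and with shNFYA they were -0.42, 0.63, -0.97, 0.95 and -0.66, which turned the sign of MMP1, SOX9 and ARMCX2.

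Lists of genes of known function were then read through the interaction, each by its counts and medians beside those of all genes, whose median was -0.04 in A375M2, 0.0 in C32 and 0.06 for the interaction. The lists were chosen with earlier results of these data known, so their shares beside those of all genes are a description and no independent support. Background shares of called genes were 41.1% risen and 44.3% fallen in A375M2 and 32.2% risen and 30.3% fallen in C32. For the interaction they were 42.1% higher and 38.1% lower in C32.

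With GFP as reference, the amino acid stress genes governed by the transcription factor ATF4 were opposed between the lines. When charged transfer RNA runs short or the endoplasmic reticulum is stressed, ATF4 is translated and turns on amino acid synthesis, amino acid transport and transfer RNA synthetase genes. Of 35 measured members (of 37 listed), 32 rose and 2 fell in A375M2, with a median of 1.84, while 1 rose and 29 fell in C32, with a median of -0.54. The interaction was lower in C32 for 33, higher for 1 and not called for 1, with a median of -2.72, and 26 of the 35 rose in A375M2 and fell in C32 at any size, against 9.32% of all genes. In 8 of them, ASNS, SLC7A11, ATF3, VLDLR, PCK2, WARS1, SLC3A2 and SLC1A5, both changes reached 2-fold. With the shNFYA reference the median interaction of the list was -0.68, and its median A375M2 difference against shNFYA was 0.11.

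SLC7A11, the cystine transporter, stood at 10.48, 10.59 and 10.52 in A375M2 GFP, 11.92, 11.90 and 11.88 in A375M2 shFHL2, 13.13 and 13.24 in C32 GFP and 9.23, 9.17 and 9.22 in C32 shFHL2. The largest part of its interaction of -5.35 (95% interval -5.47 to -5.23, adjusted p = 7.24e-21) was its fall in C32, and -4.23 was left with shNFYA. WARS1, the tryptophanyl transfer RNA synthetase, stood at 10.88, 10.88 and 10.90 (GFP) and 12.70, 12.78 and 12.69 (shFHL2) in A375M2 and at 13.16 and 13.15 (GFP) and 11.48, 11.41 and 11.48 (shFHL2) in C32, with an interaction of -3.53 and -1.33 with shNFYA. ATF4 itself rose by 1.93 in A375M2 and fell by 0.46 in C32, an interaction of -2.40. PHGDH and PSAT1, of serine synthesis, had interactions of -2.99 and -2.89, and the stress factors DDIT3 and TRIB3 had -1.87 and -3.10. The exception was GDF15, a stress-induced hormone of the TGF-beta family, which fell in A375M2 from 14.57, 14.52 and 14.54 to 10.55, 10.56 and 10.56 but stayed high in C32 at 15.92 and 15.96 (GFP) and 15.73, 15.70 and 15.75 (shFHL2). Its interaction of 3.77 (95% interval 3.69 to 3.85) became -0.91 with shNFYA. STC2, a secreted glycoprotein, and CHAC1, which degrades glutathione, rose by 4.77 and 3.62 in A375M2 and had -0.21 and 0.06 in C32, neither of which passed the test, with CHAC1 silent there.

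Promoter letters are given for this list as a description. Its genes were listed as known ATF4 targets, so the share of the ATF4 motif among them is no independent result. The letters TGATGNAA are the core of the composite element that ATF4 binds with C/EBP proteins. They were searched on both strands of RefSeq promoter windows (GRCh38.p14, from 250 bases before to 50 bases after a gene's start), which were matched by symbol for 9058 of 10940 genes, and matches of the motifs searched were allowed to overlap. A match was found in 1.77% of all these promoters, in 8 of 29 (27.6%) of the ATF4 list and in 5 of 77 (6.49%) of the genes that rose in A375M2 and fell in C32, which were ASNS, ATF3, HERPUD1, SLC3A2 and TLR3. For the 53 genes of the other direction it was 1 of 38 (2.63%). Stretches of 100 bases around the match are printed for ASNS and HERPUD1, which the naming rule picks, and for ATF3, chosen after its values were seen, with the match in capitals. That of ASNS lies at chr7:97872419-97872518 on the minus strand, that of HERPUD1 at chr16:56931922-56932021 on the plus strand, where the capitals show the motif's reverse complement, and that of ATF3 at chr1:212565177-212565276 on the plus strand; the matches begin at positions -68, -176 and -191 from the start. A match is a description of the letters and not evidence of binding.
ASNS: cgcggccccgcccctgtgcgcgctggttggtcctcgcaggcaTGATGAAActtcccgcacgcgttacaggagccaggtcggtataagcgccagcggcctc
HERPUD1: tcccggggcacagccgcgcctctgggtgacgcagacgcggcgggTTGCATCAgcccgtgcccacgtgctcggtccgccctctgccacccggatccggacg
ATF3: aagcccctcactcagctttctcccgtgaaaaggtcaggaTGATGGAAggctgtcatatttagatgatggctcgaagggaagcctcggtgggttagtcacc

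Endoplasmic reticulum chaperones and disulfide enzymes fell in C32 and split in A375M2. Of 22 members, 10 rose and 12 fell in A375M2 (median -0.15), and 1 rose and 20 fell in C32 (median -0.99). The interaction was lower in C32 for 19 and higher for 1, with a median of -0.93, or -0.49 with the shNFYA reference. HERPUD1, which helps to clear misfolded proteins, stood at 11.42, 11.42 and 11.44 in A375M2 GFP, 12.97, 13.08 and 13.04 in A375M2 shFHL2, 13.34 and 13.28 in C32 GFP and 12.21, 12.28 and 12.13 in C32 shFHL2, and was opposed at 2-fold (1.60 and -1.10). HSPA5, the master chaperone of this compartment, had a difference of 0.32 in A375M2, or -0.19 by its other probe set, and fell from 16.39 and 16.41 to 15.37, 15.38 and 15.45 in C32, an interaction of -1.33 (95% interval -1.42 to -1.23). DNAJB9, a cochaperone of HSPA5, and MANF, a secreted stress-responsive protein, had interactions of -2.18 and -1.29. The members that rose in A375M2 were led by HERPUD1, DNAJB9, XBP1 and ERO1A, while PDIA4, HSP90B1 and CALR fell in both lines and further in C32, with interactions of -1.04, -1.15 and -0.72. With shNFYA as reference the interaction was -0.80 for HERPUD1, -0.83 for DNAJB9, -0.82 for HSPA5 and -0.44 for MANF.

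Genes of G2, mitotic entry and the spindle ran in the reverse direction. Of 31 measured members, 1 rose and 28 fell in A375M2 (median -0.89), while 31 rose and 0 fell in C32 (median 1.01). All 31 had an interaction called higher in C32, against 42.1% of all genes, with a median of 1.95. In 28 of the 31 the gene fell in A375M2 and rose in C32 at any size, against 12.1% of all genes, and in 6 (AURKA, AURKB, BUB1B, CDC20, CENPE and DLGAP5) both changes reached 2-fold. With the shNFYA reference the list's median interaction was 0.20, and its median A375M2 difference against shNFYA was 0.73.

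AURKA, the centrosomal mitotic kinase, stood at 10.51, 10.56 and 10.55 in A375M2 GFP, 9.34, 9.36 and 9.28 in A375M2 shFHL2, 10.87 and 11.04 in C32 GFP and 12.16, 12.19 and 12.14 in C32 shFHL2, with an interaction of 2.42 (95% interval 2.28 to 2.55, adjusted p = 6.56e-16). C32 was above A375M2 by 0.41 with GFP and by 2.83 with the shRNAs. NUSAP1, a spindle protein, stood at 11.23, 11.19 and 11.12 (GFP) and 9.58, 9.61 and 9.61 (shFHL2) in A375M2 and at 12.30 and 12.39 (GFP) and 13.28, 13.28 and 13.32 (shFHL2) in C32. CCNB1, the cyclin of mitotic entry, stood at 10.68, 10.65 and 10.69 (GFP) and 9.32, 9.40 and 9.41 (shFHL2) in A375M2 and at 11.06 and 11.07 (GFP) and 12.08, 11.94 and 12.02 (shFHL2) in C32. TPX2, which activates AURKA on the spindle, stood at 9.75, 9.74 and 9.80 (GFP) and 7.96, 7.93 and 7.96 (shFHL2), then 9.49 and 9.51 (GFP) and 10.16, 10.21 and 10.17 (shFHL2). None of the 4, which were picked by their interaction p, overlapped between vectors in either line, as for 64.9% of all genes. Their interactions were 2.42 for AURKA, 2.53 for NUSAP1, 2.24 for CCNB1 and 2.50 for TPX2, or 1.82, 0.34, 1.71 and 0.46 with shNFYA. KIF20A, a kinesin of cytokinesis, had the highest interaction of the list at 3.38, and KIF11, a spindle kinesin, the lowest at 0.44. MKI67, the proliferation antigen, had 2.27.

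The letters TTTGAA are the core of the cell cycle genes homology region, through which late cell cycle genes are held back in resting cells, and CCAAT is the site of NF-Y. TTTGAA was found on either strand in 10.1% of all promoter windows, in 18 of 26 (69.2%) of the mitotic list, in 15 of 38 (39.5%) of the genes that fell in A375M2 and rose in C32 and in 16.9% of those of the other direction. The mitotic list was made of known late cell cycle genes, so the share of TTTGAA among them is no independent result. The 15 genes include BUB1B, CDC20 and DLGAP5 of that list. CCAAT was found in 37.2% of all windows, in 73.1% of the mitotic list, in 65.5% of the ATF4 list, in 19 of 21 (90.5%) of the chaperone list, in 50% of the 53 genes and in 36.4% of the 89. CDC20, BUB1B and SPC25, spindle checkpoint and kinetochore genes of the 53 that were chosen after their values were seen, are printed with TTTGAA in capitals; their interactions were 2.24, 2.67 and 4.16. They lie at chr1:43358871-43358970 on the plus strand, chr15:40160989-40161088 on the plus strand and chr2:168890411-168890510 on the minus strand, and the capitals begin at positions -65, -23 and -3.
CDC20: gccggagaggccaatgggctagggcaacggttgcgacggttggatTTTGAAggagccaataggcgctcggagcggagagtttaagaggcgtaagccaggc
BUB1B: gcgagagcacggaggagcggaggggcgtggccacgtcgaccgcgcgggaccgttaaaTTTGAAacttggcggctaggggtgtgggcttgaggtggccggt
SPC25: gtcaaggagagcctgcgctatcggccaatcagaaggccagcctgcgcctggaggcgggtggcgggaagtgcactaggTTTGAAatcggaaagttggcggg

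Genes of the G1/S transition and DNA replication were not opposed as a list. Of 28 members, 17 rose and 6 fell in A375M2 (median 0.19) and 27 rose and 0 fell in C32 (median 0.62). The interaction was higher for 17, lower for 10 and not called for 1, with a median of 0.47, or 0.27 with shNFYA. CDT1 and CDC6, which license replication origins, rose more in A375M2. CDT1 stood at 6.93, 7.21 and 7.25 (GFP) and 9.57, 9.39 and 9.47 (shFHL2) there and at 9.47 and 9.67 (GFP) and 10.14, 10.19 and 10.26 (shFHL2) in C32, and the interaction was -1.72 for CDT1 and -1.67 for CDC6. TYMS, the thymidylate synthase, fell in A375M2 from 13.88, 13.85 and 13.91 to 12.37, 12.39 and 12.43 and rose in C32 from 14.33 and 14.43 to 15.11 in each array, an interaction of 2.21 (95% interval 2.11 to 2.31). RFC3, of the clamp loader, had 0.99. With shNFYA as reference TYMS had -0.35 and CDC6 0.29, both of the other sign, CDT1 had -0.34 and RFC3 0.93.

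**Figure D4:**
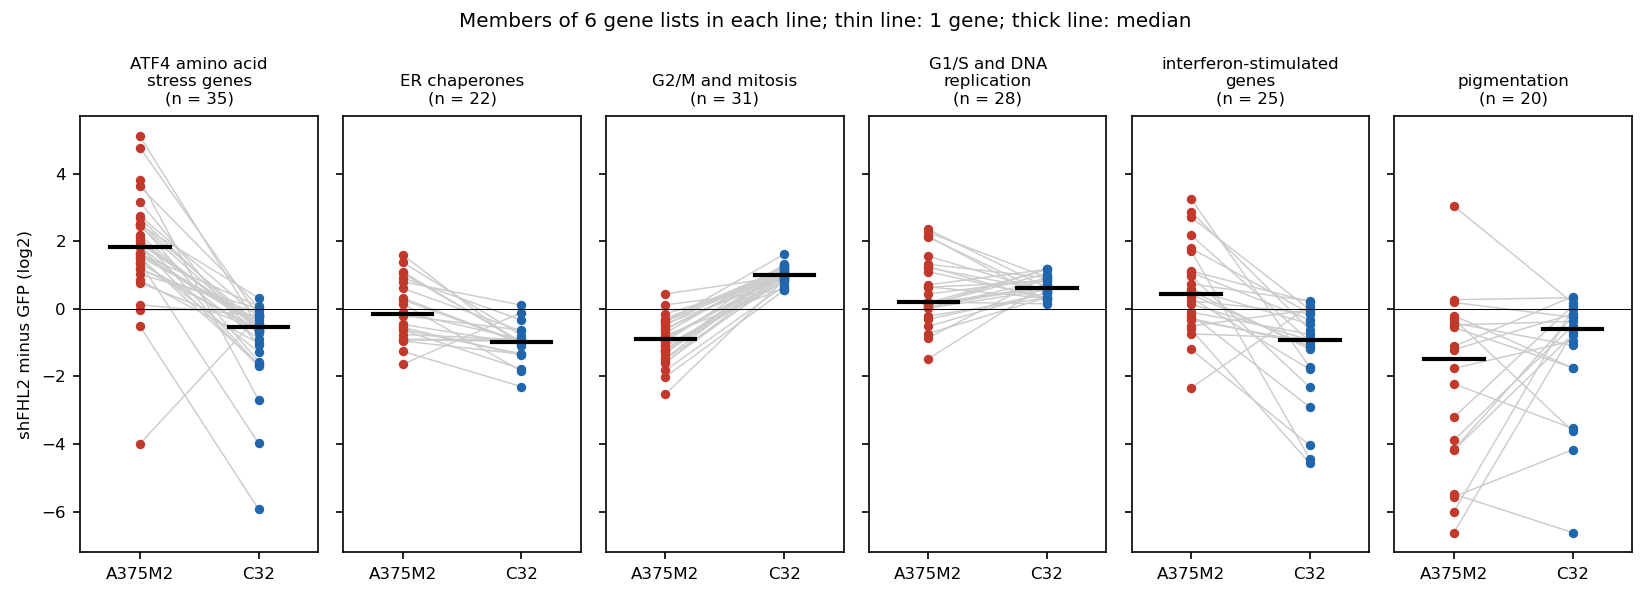
Log2 difference between shFHL2 and GFP arrays in A375M2 and C32 for the measured members of 6 gene lists; each thin line joins 1 gene in the 2 lines, and the thick bar is the median. The ATF4 list goes from a median of 1.84 to -0.54 and the mitotic list from -0.89 to 1.01, with lines that cross 0.

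Most interferon-stimulated genes fell in C32, and most rose in A375M2. Of 25 measured members, 15 rose and 7 fell in A375M2 (median 0.43), and 0 rose and 18 fell in C32 (median -0.93). The interaction was lower in C32 for 22 and higher for 2, with a median of -1.56, or -0.76 with shNFYA. ISG20, an antiviral exonuclease, stood at 9.83, 9.91 and 9.94 in A375M2 GFP, 13.11, 13.15 and 13.18 in A375M2 shFHL2, 8.82 and 8.86 in C32 GFP and 7.15, 7.05 and 7.12 in C32 shFHL2, an interaction of -4.98 (95% interval -5.13 to -4.83). SAMD9L, an antiproliferative interferon target, stood at 4.08, 4.51 and 4.53 (GFP) and 6.19, 6.14 and 5.94 (shFHL2) in A375M2, and at 7.72 and 7.68 in C32 GFP against 3.47, 2.91 and 3.39 in C32 shFHL2, under log2 4. Over its 3 probe sets the A375M2 difference ran from 0.50 to 1.88. The neighbouring SAMD9 had -3.49 and IFI6, a mitochondrial interferon target, -2.11. The interaction with shNFYA was -1.59 for ISG20, -3.74 for SAMD9L, -0.82 for SAMD9 and -1.37 for IFI6.

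Antigen presentation genes showed small differences of the reverse sign. Of 20 measured members, 3 rose and 12 fell in A375M2 (median -0.22), and 10 rose and 8 fell in C32 (median 0.19). The interaction was higher in C32 for 13 and lower for 3, with a median of 0.36, or -0.31 with shNFYA. The class II chain HLA-DRA stood at 14.16, 14.08 and 14.16 (GFP) and 14.24, 14.20 and 14.24 (shFHL2) in A375M2, where the difference did not pass the test, and at 12.66 and 12.83 (GFP) and 14.06, 14.13 and 14.15 (shFHL2) in C32. Its interaction was 1.28 (95% interval 1.14 to 1.42), and HLA-DMB, which loads peptide on class II, HLA-DRB1 and the immunoproteasome subunit PSMB8 had 1.22, 1.10 and 1.01. With shNFYA these became 0.56 for HLA-DRA, -0.04 for HLA-DMB, -0.26 for HLA-DRB1 and 0.24 for PSMB8. HLA genes are closely similar, and their probe sets can read each other's transcripts.

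Most cytokines and other NF-kappaB targets rose in A375M2, and most were silent in C32. Of 15 measured members, 12 rose and 1 fell in A375M2 (median 1.69), and 3 rose and 3 fell in C32 (median -0.01), where 9 were silent. Among all 10940 genes tested, 845 were silent in C32 and not in A375M2. A gene silent in C32 passed the filter only through A375M2 arrays, and the counts of this list include such members. The interaction was lower in C32 for 11 and higher for 2 (median -1.77), and with shNFYA the median was 1.13. IL1A and IL11 had A375M2 differences of 7.83 and 7.78 and were silent in C32. PTGS2, the inducible cyclooxygenase, stood at 5.04, 5.0 and 5.35 in A375M2 GFP and 10.86, 10.77 and 10.73 in A375M2 shFHL2, and at 11.24 and 11.18 (GFP) and 11.06, 11.02 and 10.92 (shFHL2) in C32, so that A375M2 with the shRNAs came to the level of C32. The interaction of PTGS2 was -5.87 (95% interval -6.16 to -5.57) but 2.04 with shNFYA. NFKBIA, the inhibitor of NF-kappaB, had -1.32 and 0.52, and TNFAIP3, a ubiquitin-editing brake on the pathway, 0.95 and 1.13.

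Most pigment cell genes fell in both lines, and which line fell further depended on the gene. Of 20 measured members, 17 fell in A375M2 (median -1.49) and 15 fell in C32 (median -0.60), with 14 of them falling in both. The interaction was higher in C32 for 10 and lower for 8, with a median of 0.46 that went to -0.03 with values under log2 4 set to 4 and to -1.39 with shNFYA. MITF, the lineage factor, stood at 14.20, 14.31 and 14.20 in A375M2 GFP, 10.06, 10.01 and 10.09 in A375M2 shFHL2, 14.92 and 14.99 in C32 GFP and 14.24, 14.09 and 14.27 in C32 shFHL2. It fell by far more in A375M2 than in C32, an interaction of 3.43 (95% interval 3.26 to 3.59, adjusted p = 1.12e-16), yet with shNFYA as reference the value was -1.86. GPNMB, a melanosome glycoprotein, stood at 14.47, 14.43 and 14.44 (GFP) and 10.28, 10.34 and 10.24 (shFHL2) in A375M2 and at 15.18 and 15.25 (GFP) and 15.02, 14.93 and 15.01 (shFHL2) in C32, an interaction of 3.93 that was -1.47 with shNFYA. RAB38, a melanosome transport GTPase, went the other way, at 12.52, 12.37 and 12.42 (GFP) and 12.13, 12.17 and 12.12 (shFHL2) in A375M2 and 11.09 and 11.12 (GFP) and 7.53, 7.61 and 7.30 (shFHL2) in C32, with -3.33 and -4.92. ST3GAL6, a sialyltransferase, had 3.30 and -2.51, with the sign shared by 3 of its 4 probe sets. The melanosome genes TYRP1 and PMEL fell in both lines, with differences of -5.48 and -2.22 in A375M2 and -6.62 and -3.54 in C32, and interactions of -1.14 and -1.32, or -5.78 and -3.64 with shNFYA.

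Fuel-use genes were few and divided. Of 10 measured members, 2 rose and 8 fell in A375M2 (median -0.85), and 4 rose and 4 fell in C32 (median 0.02). The interaction was higher for 7 and lower for 2 with a median of 1.95, or -0.51 with shNFYA. ARRDC4, which like TXNIP is a target of the glucose sensor MondoA (MLXIP), stood at 8.67, 8.66 and 8.77 (GFP) and 8.01, 7.97 and 7.97 (shFHL2) in A375M2 and at 7.57 and 7.24 (GFP) and 9.83, 9.64 and 9.71 (shFHL2) in C32. ARRDC4 and TXNIP rose in C32 and fell in A375M2, by 0.71 and 0.30 (up to 1.57 among the 3 TXNIP probe sets), with interactions of 3.04 and 8.28, or 2.33 and 8.05 with shNFYA. MLXIP had 1.0 and 0.16. PPP1R3C, a glycogen-targeting subunit of a phosphatase, stood at 11.20, 11.31 and 11.23 in A375M2 GFP, at 2.46 in each A375M2 shFHL2 array and at 11.27 and 11.17 (GFP) and 10.56, 10.58 and 10.65 (shFHL2) in C32. Its interaction of 8.16 was -0.62 with shNFYA.

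Targets and feedback inhibitors of the MAPK cascade split by gene. Of 25 members, 17 rose and 7 fell in A375M2 (median 0.56), and 4 rose and 12 fell in C32 (median -0.17). The interaction was lower in C32 for 14 and higher for 8 with a median of -0.34, or -0.58 with shNFYA. EGR1, an immediate early transcription factor, stood at 9.05, 9.12 and 9.12 (GFP) and 11.85, 11.95 and 11.93 (shFHL2) in A375M2 and at 11.55 and 11.56 (GFP) and 10.40, 10.40 and 10.38 (shFHL2) in C32, an interaction of -3.98 (95% interval -4.09 to -3.87). Over its 3 probe sets the C32 difference ran from -1.47 to -0.82. CCND1, the cyclin D1 gene, had -2.08, from 1.52 in A375M2 and -0.56 in C32. MYC stood at 10.63, 10.57 and 10.63 (GFP) and 8.29, 8.33 and 8.36 (shFHL2) in A375M2 and at 11.72 and 11.71 (GFP) and 11.67, 11.83 and 11.76 (shFHL2) in C32, where the difference did not pass the test, an interaction of 2.32. SPRY4, a feedback inhibitor, had 1.95. With shNFYA the values were -1.09 for EGR1, -1.46 for CCND1, 0.53 for MYC and -1.10 for SPRY4, of the other sign for SPRY4.

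The LIM-domain family of FHL2 had no common direction. Of 28 measured members, 14 rose and 12 fell in A375M2 (median 0.09), and 7 rose and 10 fell in C32 (median -0.05). The interaction was called in all 28, against 80.2% of all genes. It was lower in C32 for 16 and higher for 12, with a median of -0.85, or -0.33 with shNFYA. PDLIM1, an actin-associated adaptor, stood at 10.25, 10.24 and 10.34 (GFP) and 10.67, 10.73 and 10.68 (shFHL2) in A375M2, and at 6.90 and 6.89 in C32 GFP against 2.26, 2.48 and 2.68 in C32 shFHL2, under log2 4. Its interaction of -4.84 (95% interval -5.08 to -4.59) was -5.51 with shNFYA. TGFB1I1, a focal adhesion adaptor of the paxillin family, stood at 9.82, 9.84 and 9.90 (GFP) and 10.58, 10.65 and 10.70 (shFHL2) in A375M2 and at 9.59 and 9.60 (GFP) and 7.89, 7.93 and 8.0 (shFHL2) in C32, an interaction of -2.45 and -1.74 with shNFYA. TRIP6, a zyxin family member, had 2.13 and 0.19, and LASP1, which binds actin, -1.41 and 0.25. LMO7, at 4.74, was the highest of the family, and LDB3, at -5.59, the lowest. Over 9 other lists, which took in matrix, integrins, YAP targets, growth factor receptors, undifferentiated state genes, sterol synthesis, hypoxia, lysosomes and NF-Y subunits, the median interaction ran from -0.70 to 0.67, and from -1.30 (matrix) to 1.26 (NF-Y subunits) with shNFYA. That of YAP targets went from -0.09 to -1.18 with that reference, and those of integrins, undifferentiated state genes, hypoxia and lysosomes changed sign.

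The interaction is also the gap between the lines with the shRNAs less the gap with GFP, so it can close a difference between the lines or open one. For the 89 genes that rose in A375M2 and fell in C32, the median gap (C32 minus A375M2) was 1.39 with GFP and -2.69 with the shRNAs. The gap became narrower in 36 and wider in 53 of them, and in 46 the order of the lines was reversed with a called difference on both sides. For the 53 genes of the other direction the median gap went from -0.53 to 2.69, with 11 narrower, 42 wider and 24 reversed. Over the 142 genes the median absolute gap went from 1.68 to 2.73, against 0.81 and 0.85 over the 9809 tested genes silent in neither line, of which 1485 were reversed. Among those 9809 genes the gap was narrower in 4555 and wider in 5254. Of 2977 of them called at 2-fold in the interaction, 1249 were narrower, 1728 wider and 960 reversed, and their median absolute gap went from 1.11 to 1.33. Because the classes were chosen by large and opposed changes, the moves of their gaps are a description and no further result.

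**Figure D5:**
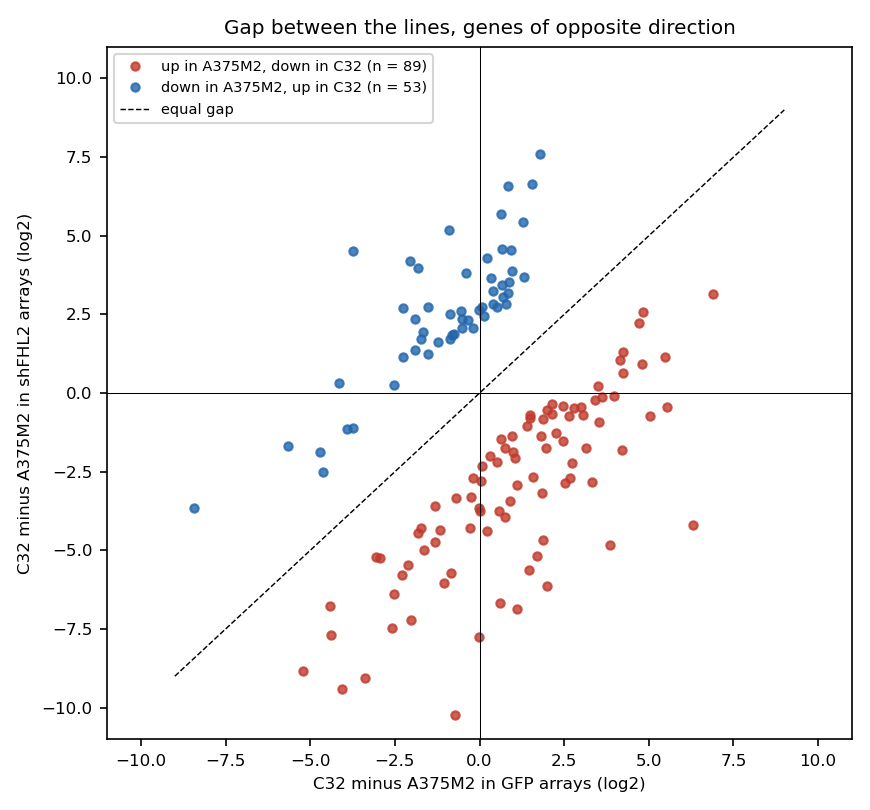
Gap between the lines (C32 minus A375M2, log2) with GFP (x axis) and with FHL2 shRNAs (y axis) for the 142 genes of opposite direction; on the dashed line the gap is equal. The 89 genes that rose in A375M2 lie below the line, at a median of 1.39 with GFP and -2.69 with the shRNAs, and the 53 of the other direction lie above it.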

How the data were processed

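Expression was measured on Affymetrix arrays in 18 samples. The values were used as the authors deposited them, as log2 signals from GCRMA per the submitters' processing notes; no version is given. Of 23416 probe sets, 58 were controls, 995 carried several symbols, 2099 none and 20264 a single one. The probe set of highest mean level stood for its gene, and genes at log2 4 or more in at least 3 arrays were kept.

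Means of the 6 groups (17 arrays, C32 GFP replicate 3 left out) were modelled in limma 3.58.1 under R 4.3.3, with lmFit, contrasts and a trended eBayes on 11 residual degrees of freedom. Benjamini-Hochberg adjustment ran over all 10940 genes in each contrast, and calls are at an adjusted p under 0.05. Promoters are from RefSeq (GRCh38.p14). Python 3.11.15 and matplotlib 3.10.9 made the plots.

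The naming rule took FHL2, then in each opposite class the 8 genes with the largest smaller change, in each silent class the 5 each way with the largest change, 4 each way by interaction among the rest, and up to 4 members of each described list by adjusted p. Those of the opposite classes were taken among genes whose shFHL2 and GFP arrays did not overlap in either line. Other names in the text were chosen after their values were seen. The members and lists were chosen with earlier results of these data known. The code was tested on simulated data. The number of arrays limits the precision. Same-numbered arrays are not paired by the data, since their deviations from group means correlated at -0.14 to 0.08 over 15 pairs. Alternatives covered scaling, filters, floors, probe set choice, variance models, the reference group and single arrays left out.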

Additional observations from a re-analysis of the deposited data

Results flagged for a closer look

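The difference between the lines was itself tested with limma, and every value here is that difference, C32 less A375M2, on the log2 scale. At 2-fold or more, 3715 genes were called. FHL2 had -1.21.

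Of the genes that rose in A375M2 and fell in C32, the difference was -7.26 for CALHM6, -6.53 for ASNS, -7.71 for ARG2, -5.35 for CXCL8, -5.96 for N4BP2L1, -4.96 for EHF, -8.11 for TMCC3 and -9.51 for AXL. Of those that fell in A375M2 and rose in C32, it was 8.27 for COL8A1, 5.82 for PIP5K1B, 6.05 for DSEL, 4.24 for SNAP25, 5.07 for SLC7A8, 3.92 for CCN3, 5.79 for FSTL5 and 3.96 for ALDH5A1.

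Among genes silent in C32 it was -9.08 for COL6A3, -8.94 for LCN2, -8.86 for CHMP4C, -8.39 for CDH12, -8.31 for TRHDE, 10.46 for HGF, 6.97 for UTS2, 6.83 for DLK1, 6.64 for CUX2 and 5.89 for COLEC12. Among genes silent in A375M2 it was 4.23 for ASB2, 3.59 for SCEL, 4.2 for C4orf54, 2.93 for RPPH1, 4.15 for EVI2B, -5.59 for LDB3, -3.96 for XAF1, -3.14 for CCDC80, -2.98 for KCNJ13 and -2.82 for GRK3. Of the remaining genes, it was 9.74 for SPATS1, 8.78 for SOX9, 8.41 for ARMCX2, 8.28 for TXNIP, -9.09 for SERPINH1, -8.65 for IGFBP3, -8.52 for MMP1 and -6.84 for EFEMP2.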

How the results depend on the processing

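Over 29 alternatives, the counts moved by over 1.5 times in these cases. A filter at log2 6 gave 404 genes silent in C32 and 55 silent in A375M2. The probe set of largest variance gave 80 genes down in A375M2 and up in C32, and 186 silent in A375M2. A silence limit of log2 3 gave 59 silent in A375M2. With A375M2 shNFYA in place of GFP, 2175 genes were called at 2-fold, 17 were down in A375M2 and up in C32, and 302 were silent in C32. That reference also turned the sign of 19 of 86 named genes: COL6A3 (0.08), CHMP4C (0.28), TRHDE (0.68), SOX9 (-0.97), ARMCX2 (-0.66), MMP1 (0.63), GDF15 (-0.91), TYMS (-0.35), CDC6 (0.29), HLA-DMB (-0.04), HLA-DRB1 (-0.26), PTGS2 (2.04), NFKBIA (0.52), GPNMB (-1.47), MITF (-1.86), ST3GAL6 (-2.51), PPP1R3C (-0.62), SPRY4 (-1.10) and LASP1 (0.25). Of these COL6A3 (adjusted p = 0.557) and HLA-DMB (adjusted p = 0.615) did not pass the limma test with that reference. It reversed the list medians of antigen presentation (-0.31), NF-kappaB targets (1.13), pigmentation (-1.39), fuel use (-0.51), integrins (-0.32), undifferentiated state (-0.63), hypoxia (-0.27) and lysosomes (-0.15), and setting values under log2 4 to 4 reversed that of pigmentation (-0.03). The small median of integrins also turned with the PMEL reference (-0.42), the probe set of largest variance (-0.08), the mean of probe sets (-0.08) and without C32 GFP replicate 1 (-0.05 to 0.16 over single arrays left out), and that of hypoxia with median centring (-0.02), the mean of probe sets (-0.20) and without C32 GFP replicate 1 (-0.03 to 0.09 over single arrays left out). The cause was not tested. Leaving out each array in turn gave 8532 to 8709 genes called, 3698 to 3776 at 2-fold, 84 to 91 up in A375M2 and down in C32, 50 to 56 the other way, 611 to 640 silent in C32 and 108 to 117 silent in A375M2. The replicate number as a block gave 8662 genes called, with 90 and 53 of opposite direction. Centring each array on its median gave 4362 higher and 4399 lower in C32.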
